A study of Mus musculus with 9 samples.

Results

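Mouse esophageal organoids whose labels give a knockout of Trp53, of Cdkn2a and of Notch1 (called PCN) were compared with wild-type organoids (WT) over every gene that the authors' deposited table of that comparison lists. The table holds 6678 genes, of 8742 genes listed in any of the 3 tables of the series, and these were tested again from their raw counts: 6404 passed a filter on low counts and 274 did not. Organoids are small self-organised bodies grown from tissue cells, here labelled as epithelial cells of the esophagus, untreated, and collected 7 days after seeding. The WT group and the PCN group have 3 libraries each. Another group of 3, whose labels give the Trp53 and Notch1 knockouts without Cdkn2a (called PN), is set beside PCN in the last comparison. The strain, the age of the animals, how the genes were edited and whether a line is clonal are not stated by the labels. Nor do they say that replicate libraries were grown as separate cultures, so p-values measure the spread between these libraries, which may be technical.

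As background, Trp53 encodes the p53 transcription factor, which halts division or starts cell death after DNA damage. Cdkn2a encodes a pair of unrelated proteins from overlapping transcripts, an inhibitor of the kinases Cdk4 and Cdk6 and the Arf protein that stabilises p53. Notch1 is a receptor through which basal cells of squamous epithelium leave the cell cycle and differentiate. In the esophagus a dividing basal layer that makes Krt5, Krt14 and Krt15 feeds suprabasal layers that make Krt4 and Krt13, lipid-processing enzymes, proteases and their inhibitors.

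Among the larger gene families, those of DNA replication and chromosome segregation rose in nearly every listed member, and the proteins of the cytosolic ribosome fell in nearly every one. Promoters of single genes are shown as examples because they carry short motifs, most of which background knowledge ties to cell-cycle genes. They do not represent their families. Cdk1 is described below with the cyclins and kinases, which moved in both directions. Each run gives the 120 bases before the RefSeq transcript start, 5′ to 3′ on the gene's strand, in build GRCm38.p6, with motif letters in capitals. Cdk1, Rrm1, Mcm3 and Rps6 were chosen after their values were seen, and Top2a is among the genes with the largest gain in counts. Top2a, the topoisomerase that untangles sister chromosomes, is shown at chr11:99024190-99024309, minus strand. Cdk1, the kinase that starts mitosis, is at chr10:69352913-69353032, minus strand. Rrm1, the large subunit of ribonucleotide reductase, is at chr7:102441575-102441694, plus strand. Mcm3, part of the helicase that opens DNA at replication origins, is at chr1:20820313-20820432, minus strand. Rps6, a small-subunit ribosomal protein at chr4:86857368-86857487, minus strand, is the example from the ribosomal family. The RefSeq start lies 26 bases from the start in the deposited table for Cdk1 and 45 bases from it for Rps6.
Top2a: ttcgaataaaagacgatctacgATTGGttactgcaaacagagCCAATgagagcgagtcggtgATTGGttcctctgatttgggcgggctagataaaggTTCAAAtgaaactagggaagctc
Cdk1: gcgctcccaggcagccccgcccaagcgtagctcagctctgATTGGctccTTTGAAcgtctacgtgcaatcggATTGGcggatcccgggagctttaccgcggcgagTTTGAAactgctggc
Rrm1: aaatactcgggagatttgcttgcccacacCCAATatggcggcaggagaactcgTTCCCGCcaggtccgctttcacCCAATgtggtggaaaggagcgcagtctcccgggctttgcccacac
Mcm3: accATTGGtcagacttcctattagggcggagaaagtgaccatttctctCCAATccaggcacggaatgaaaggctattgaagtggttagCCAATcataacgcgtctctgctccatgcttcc
Rps6: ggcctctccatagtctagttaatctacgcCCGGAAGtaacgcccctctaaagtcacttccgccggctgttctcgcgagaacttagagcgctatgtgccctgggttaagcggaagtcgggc

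Motifs were searched on both strands of the 250 bases before the start, and none of these letters contains another motif. They were CCAAT (the box bound by NF-Y), TTTGAA (the cell cycle homology region), GCGGGAA (a core of E2F sites) and CCGGAAG (a core of ETS sites). The Top2a window above holds 3 CCAAT boxes and 1 TTTGAA element. Within the 250 bases both motifs stood in 7.14% of promoters of replication genes and 20.8% of those of kinetochore, spindle and condensin genes. Over all promoters the share was 5.55%. The CCAAT box stood in 28 of 53 promoters of kinetochore, spindle and condensin genes (52.8%) and in 24 of 42 of replication genes (57.1%), beside 33.8% of all 32851 promoters of the table. Each set counts 1 promoter per gene, whereas all promoters include every start of 27025 genes of any kind, so the bases differ. TTTGAA stood in 28.3% of the kinetochore set and 9.52% of the replication set, beside 16.0% of all promoters, 10.4% of those of protein-coding genes higher in PCN and 9.61% of those lower. GCGGGAA stood in 21.4% of the replication set and 11.3% of the kinetochore set, beside 3.82% of all, 9.31% of the higher and 5.57% of the lower protein-coding genes. In the ribosomal set, 14 of 51 promoters held CCGGAAG (27.5%, beside 6.91% of all, 16.5% of the higher and 10.2% of the lower), 15 held CCAAT (29.4%) and 2 held TTTGAA (3.92%). CCGGAAG was more frequent in the replication set (14 of 42, 33.3%) and less so in the kinetochore set (17.0%), so it is not particular to the ribosomal set. Among protein-coding genes, CCAAT stood in 38.5% of promoters of the genes that were higher in PCN and in 34.2% of those that were lower. The secreted and transmembrane serine proteases, which fell, held CCAAT in 5 of 9 promoters (55.6%) and TTTGAA in 2 (22.2%).

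Levels below are CPM, counts scaled to a fixed normalized library total, as mean ± SD over 3 libraries per group, and they are not corrected for gene length, so they are compared between groups and not between genes. Fold changes are log2 values of PCN over WT with their standard error (SE), and a gene is called where the adjusted p of edgeR's quasi-likelihood test is under 0.05. Of 17300 genes that the authors adjusted over, 38.6% are listed because the table holds those that the authors called, so the new fit is not independent evidence. Of the fitted genes, 98.6% were called again, 3028 higher (47.3%) and 3288 lower (51.3%). Being called therefore says little about a member, and families are described by their direction and size. Wild-type counts over the genes of all 3 tables were 12251945 to 12546593 per library and PCN counts 12004122 to 13653905, which are lower bounds on depth. Stratified squamous markers were listed for 16 of 17 genes (4 higher, 11 lower), none of 8 fibroblast or 7 muscle and glia markers was listed, and 1 of 9 leukocyte markers (Cd68) and 1 of 6 endothelial markers (Esam) were, both lower. Of 5 markers of ciliated cells Cfap43 was listed and fell from 66.2 ± 2.13 to 41.5 ± 2.07 CPM. Of 10 markers of columnar epithelium 5 were listed: Krt8 was higher, Krt18, Krt7, Krt19 and Krt20 were lower, and their summed level was 219.7 to 268.9 CPM in WT and 34.09 to 38.99 in PCN. Summed over the listed markers, the squamous level was 38420 to 40360 CPM in WT and 14090 to 14590 in PCN. In WT that sum was largely Krt13 and Krt4, which fell from means of 15876 and 11382.5 CPM to 2791 and 2206. The 4 higher squamous markers were Krt14, Krt15, Trp63 and Dsc3, so the sum does not describe the squamous markers as a whole. The part of changing cell proportions was not tested: fewer cells of a type and less RNA per cell cannot be told apart in bulk RNA.

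The targeted genes check the labels. Trp53 stood at 118, 121 and 121 CPM in the WT libraries and at 3.96, 2.53 and 2.74 in PCN. Notch1 stood at 213, 277 and 243 CPM in WT and at 70.5, 76.9 and 66.5 in PCN. Cdkn2a went the other way, with 10.2, 10.3 and 6.49 CPM in WT and 62.4, 63.1 and 70.2 in PCN (log2 2.86, SE 0.15), although PCN is labelled as its knockout. Its neighbour Cdkn2b, a related kinase inhibitor, fell from 53.3 ± 1.4 to 16.2 ± 1.97 CPM. Counts over a whole gene do not show a small edit, and the group names below are those of the labels.

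Falls were larger than rises. The median called rise was 0.58 and the median called fall -0.86 on the log2 scale, and the median of all fitted genes was -0.28. Most small changes are not listed, so the median of all fitted genes lies between the rises and the falls and is not a typical change. Past 2-fold, 610 genes were higher and 1397 lower, and past 8-fold, 99 were higher and 272 lower. The plot of mean levels shows the lower arm reaching further from the line of equality. In PCN 78 listed genes had no counts in any library, and in WT 57.

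**Figure D1:**
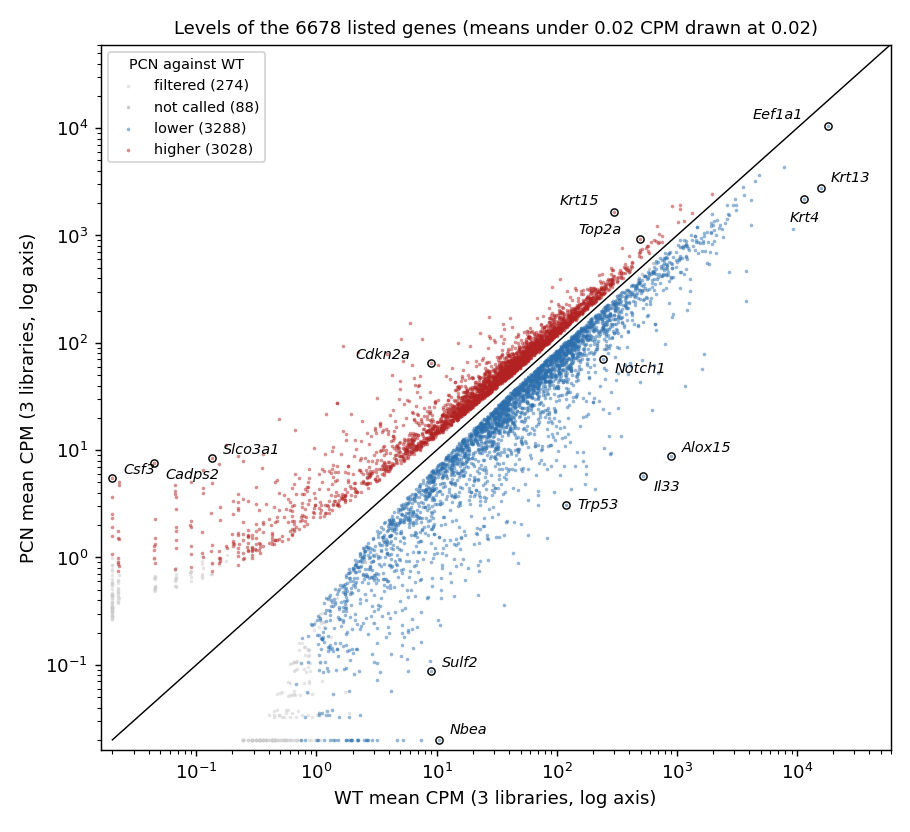
Mean CPM in PCN (y axis) against WT (x axis), both on log axes, for the 6678 listed genes, coloured by call; the line marks equal levels and circled genes are named. Krt13 and Krt4 lie far below the line at the high end, Krt15 above it, and Nbea sits on the floor for PCN.

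The largest losses in CPM were in abundant suprabasal and metabolic genes. Krt13, the suprabasal keratin of the esophagus, stood at 15832, 16542 and 15254 CPM in WT and at 2811, 2856 and 2705 in PCN, 5.69-fold lower (log2 -2.50, SE 0.06). Its partner Krt4 stood at 10939, 11748 and 11461 CPM in WT and at 2211, 2250 and 2157 in PCN, 5.16-fold lower. For both keratins every PCN library lay below every WT library, a condition of the naming rule, and the gap was wide. Gsto1, a glutathione transferase of the omega class, fell from 9264 ± 555 to 1161 ± 31.9 CPM. Emp1, an epithelial membrane protein, fell from 3786 ± 257 to 244 ± 2.76 CPM (15.5-fold), a steeper change than that of the keratins. Sprr2a1, a cornified envelope precursor whose reads may be shared with its near-identical relatives, stood at 3878, 4747 and 2759 CPM in WT and at 552, 546 and 290 in PCN. Its libraries were spread in both groups, and no overlap between the groups was a condition for naming it. Anxa1, a calcium-dependent membrane binder, fell from 2724 ± 199 to 453 ± 12.4 CPM. Gsta4, an alpha-class glutathione transferase, went from 4126 ± 230 to 1246 ± 20.1 CPM, and Scd2, a fatty acid desaturase, from 4143 ± 106 to 2141 ± 67.8. The translation elongation factors Eef1a1 and Eef2 fell by 0.79 and 0.86 on the log2 scale, to 10510 ± 551 and 4316 ± 228 CPM.

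The largest gains in CPM were in basal keratins, proliferation genes and mitochondrial transcripts. Krt15, a keratin of basal cells, stood at 334, 297 and 270 CPM in WT and at 1601, 1671 and 1660 in PCN, 5.47-fold higher (log2 2.46, SE 0.09). Krt14, the main basal keratin, gained less, from 2193, 2035 and 1651 CPM to 2337, 2476 and 2486. Its log2 change of 0.32 (SE 0.09) had an edgeR adjusted p of 0.0166, and it missed the threshold without PCN replicate 2 (edgeR adjusted p = 0.0689) or without PCN replicate 3 (0.0632). Mki67, a marker of cycling cells, rose from 352 ± 61.4 to 765 ± 100.1 CPM and Top2a from 491 ± 42.9 to 921 ± 54.7. Ptma, which encodes the chromatin-associated prothymosin, reached 1913 ± 40.9 CPM from 1057 ± 223. Ncl, the nucleolar protein nucleolin, gained 0.55 on the log2 scale and Tubb5, a beta tubulin whose reads may be shared with its relatives, 0.39. Rapgef5, an exchange factor for Rap GTPases, rose from 688 ± 63.8 to 1229 ± 33.6 CPM. Among transcripts of the mitochondrial genome, mt-Cytb (cytochrome b) rose from 917 ± 103 to 1879 ± 136 CPM and mt-Nd1 (a complex I subunit) from 1069 ± 69 to 1764 ± 120.2.

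Several genes at or near 0 in WT were present in every PCN library. Csf3, the granulocyte growth factor G-CSF, had no counts in WT and 5.35, 5.8 and 5.48 CPM in PCN, at least 82.7-fold higher against 3 counts over the WT group. Armcx2, an X-linked armadillo-repeat gene, had 1 count in WT and 283 in PCN, a ratio of 226 (exact 95% interval 40.2 to 8952, counting error alone). Cadps2, a factor that primes dense-core vesicles for release, had 2 WT counts and 430 PCN counts, a ratio of 172 (interval 47.2 to 1421). In all 3 of these genes the PCN libraries lay above every WT library, as the naming rule required. The width of the intervals comes from the few WT counts.

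Other steep rises began from a low WT level, some of them from only a few counts. Smoc2, a secreted calcium-binding matrix protein, stood at 1.94, 1.22 and 1.86 CPM in WT and at 90.5, 96.9 and 94.9 in PCN (56.3-fold). Heph, the copper-dependent ferroxidase hephaestin of iron export, stood at 2, 2.04 and 2.65 CPM in WT and at 85.1, 81.6 and 79.7 in PCN (36.8-fold). Itga2, the collagen-binding integrin subunit, stood at 0.468, 0.476 and 0.53 CPM in WT and at 22.2, 17.9 and 18.6 in PCN. For these 3 genes the gap between the groups was many times the spread within them. Steap4, a metalloreductase of iron and copper uptake, rose from 0.113 ± 0.104 to 6.56 ± 0.694 CPM, and Slco3a1, an organic anion transporter, from 0.135 ± 0.136 to 8.53 ± 1.74. Spsb4, a substrate adaptor of a ubiquitin ligase, reached 11.2 ± 1.28 CPM, Dab1, an adaptor of reelin signalling, 7.49 ± 0.852, and Fgf13, an intracellular member of the fibroblast growth factor family, 5.03 ± 0.709. Edaradd, the adaptor of the ectodysplasin receptor, rose from 0.224 ± 0.14 to 8.83 ± 0.356 CPM. Over the WT group Fgf13 had 4 counts, Steap4 5, Slco3a1 6, Dab1 7, Spsb4 8 and Edaradd 10, so their ratios are uncertain. For Fgf13 the exact 95% interval was 21.7 to 208 and for Steap4 24.9 to 182, from counting error alone. Over all listed genes the libraries of the groups did not overlap for 98.2%, so non-overlap does not set these apart.

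Among the steepest falls, a pair of genes lost all counts. Nbea, the membrane trafficking scaffold neurobeachin, stood at 8.68, 12 and 10.4 CPM in WT and had no counts in PCN, at least 194-fold lower. Eid2, an inhibitor of differentiation and of acetyltransferases, stood at 6.08, 6.12 and 3.58 CPM in WT with no counts in PCN, at least 98.2-fold lower. Alox15, the lipoxygenase that oxygenates arachidonic and linoleic acid, stood at 877, 889 and 930 CPM in WT and at 9.8, 8.49 and 8.32 in PCN (101-fold). Il33, the alarmin cytokine of epithelial nuclei, stood at 472, 506 and 581 CPM in WT and at 6.14, 6.08 and 4.83 in PCN (91.4-fold). Alox15 and Il33 thus ended under 10 CPM in every PCN library. Kbtbd11, a Kelch-repeat adaptor, fell from 82.3 ± 4.79 to 1.53 ± 0.844 CPM and Fam83e from 22.1 ± 1.07 to 0.451 ± 0.247. The butyrophilins Btn1a1 and Btn2a2, neighbours on chromosome 13 that may share reads, fell steeply (log2 -5.75 and -6.25). Sulf2, an endosulfatase that trims heparan sulfate, fell from 8.98 ± 0.527 to 0.0879 ± 0.0268 CPM. Rnf186, a RING ubiquitin ligase, and Abo, the blood-group glycosyltransferase, ended at 0.114 ± 0.153 and 0.163 ± 0.11 CPM from 5.7 ± 1.33 and 7.36 ± 1.54.

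**Figure D2:**
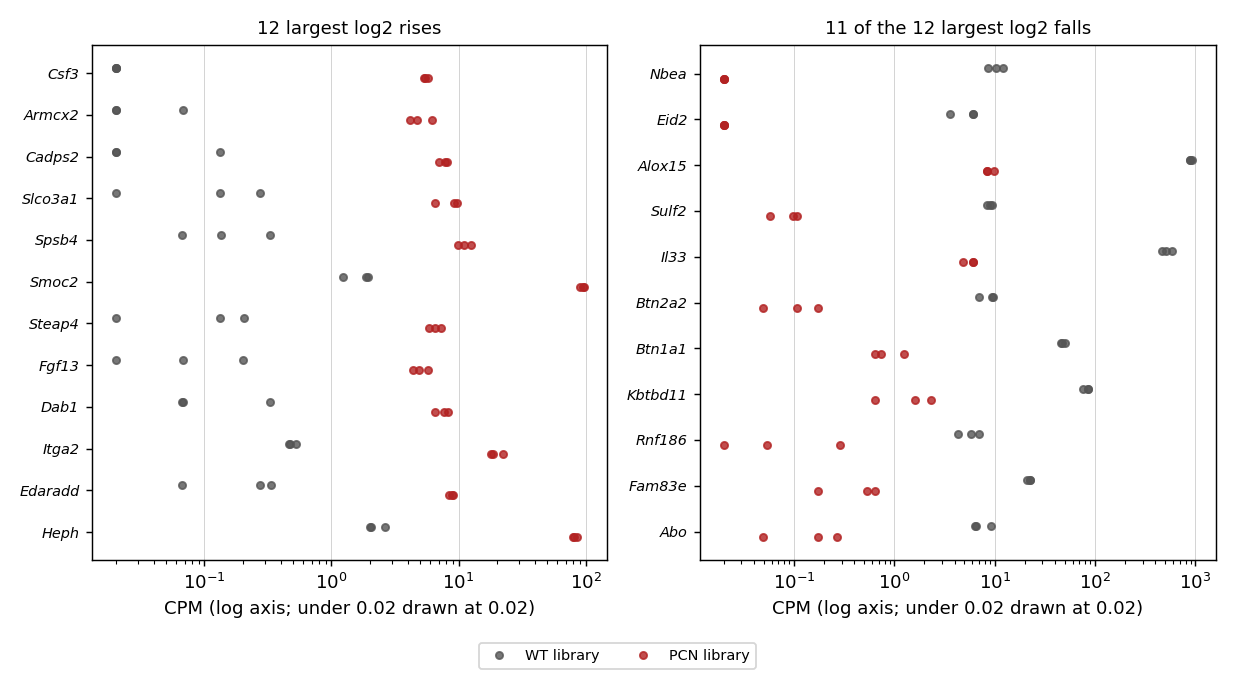
CPM in each WT and PCN library (x axis, log scale; each point is 1 library) for the 12 largest log2 rises and 11 of the 12 largest log2 falls under the naming rule. Within each gene the groups do not overlap because the naming rule required it. Csf3 in WT and Nbea and Eid2 in PCN sit on the floor because they have no counts.

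Gene families were taken by symbol among listed protein-coding genes, of which 6043 were fitted, 2944 higher and 3023 lower, with a median log2 change of -0.23. That median also lies between the rises and the falls and is not a typical change. Members of a family that the table does not list were not analysed here. The plot of family members shows 28 of the 100 families, with families at opposite ends of the scale discussed below.

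**Figure D3:**
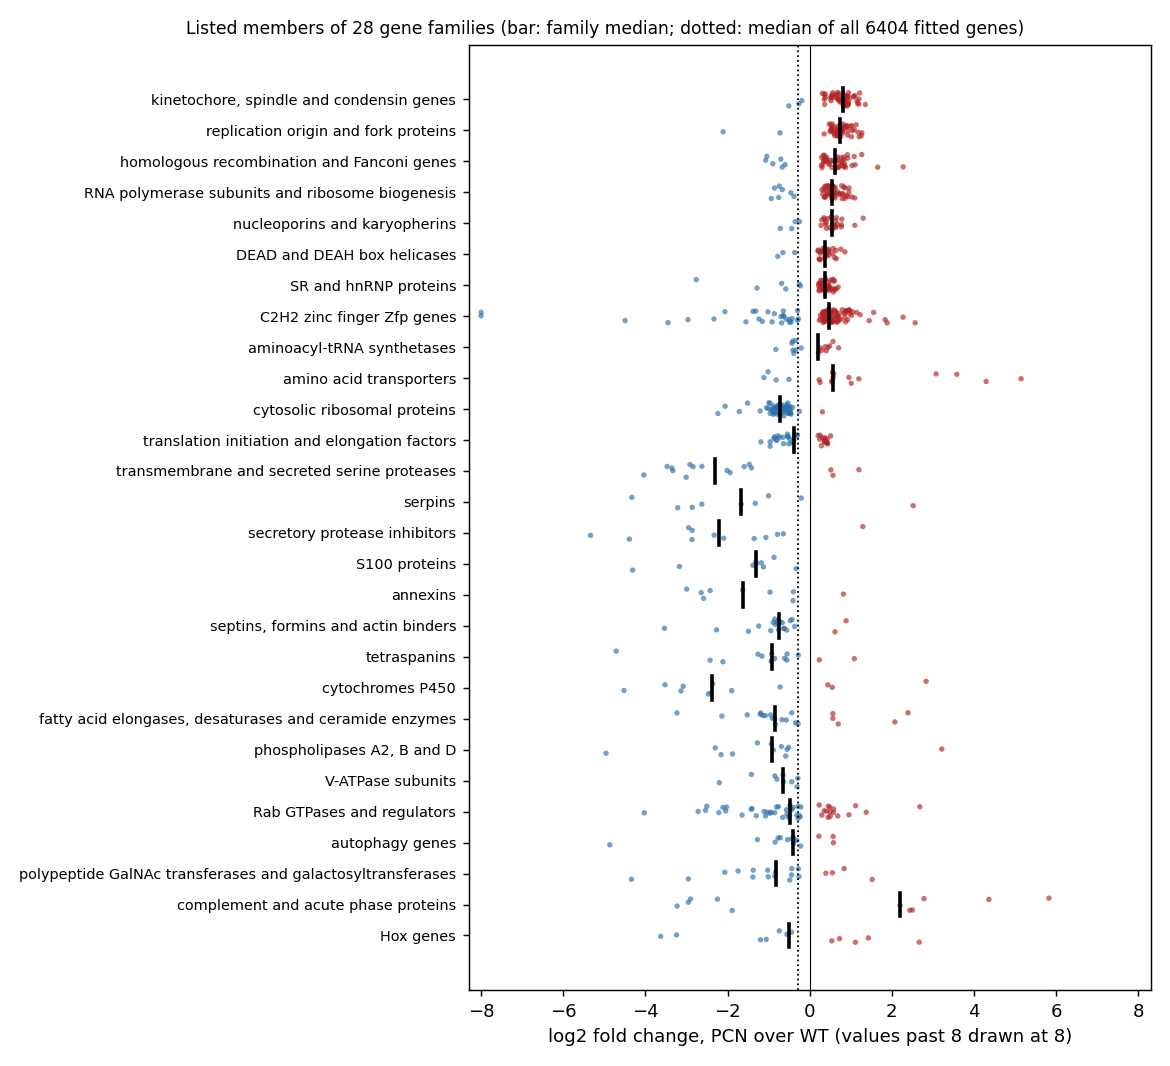
Log2 fold change of PCN over WT (x axis) for each fitted listed member of 28 gene families (y axis); bars are family medians, the dotted line is the median of all 6404 fitted genes. The replication, kinetochore and ribosome-biogenesis families lie right of 0, and the ribosomal, protease, S100 and annexin families lie left of it.

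Genes of DNA replication rose. Of 51 listed members, 49 were higher and 2 lower, with a median log2 change of 0.736. Rpa2, a subunit of the protein that coats single-stranded DNA, rose from 27.5 ± 2.75 to 66.3 ± 0.76 CPM, and Fen1, the flap endonuclease, from 4.65 ± 0.327 to 11.1 ± 1.27. Mcm3 and Rrm1, whose promoters are shown above, stood at 151.5 ± 6.16 and 284.3 ± 28.6 CPM in WT and at 261.9 ± 6.05 and 497.3 ± 23.1 in PCN. Pold4, the small subunit of polymerase delta, went against the family, from 136 ± 29.5 to 31.5 ± 0.987 CPM.

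Chromosome segregation showed the same direction. Of 60 listed kinetochore, spindle and condensin genes, 57 were higher and 2 lower, with a median of 0.823 and a range of -0.51 to 1.36. Neither of the 2 lower calls was made with TMM scaling, with DESeq2 size factors of the listed genes, without PCN replicate 3 or with chromosome 12 left out. The centromere proteins Cenpt, Cenpu and Cenpn rose by 1.36, 1.22 and 1.20 on the log2 scale. In the broader set of 26 kinesins, 16 rose and 10 fell, and the members with the largest changes were motors that do not build the spindle: Kif9, a motor of cilia, fell by 2.50 and Kif3c and Kif21b, which move cargo, by 1.33 and 1.15. Tubulins were likewise divided, 11 higher and 4 lower. Tubb2a and Tubb2b, beta tubulins prominent in neurons, fell by 2.61 and 3.18 on the log2 scale.

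Genes of recombination, Fanconi repair and poly-ADP-ribosylation rose in 43 of 51 cases and fell in 6 (median 0.618). Rad54l, a motor of homologous recombination, rose from 19.8 ± 2.74 to 47.7 ± 1.92 CPM. The largest changes there were in ADP-ribosyltransferases that are not known as core recombination factors: Parp8 rose from 5.88 ± 2.09 to 28.5 ± 0.162 CPM and Parp14 from 7.8 ± 0.634 to 24.5 ± 2.52. Of 48 cyclins, kinases, E2f factors and inhibitors, 30 rose and 16 fell, or 31 and 10 with DESeq2 size factors of the listed genes. Cdkn1a, the p53-dependent inhibitor of cyclin kinases, fell from 186 ± 10.5 to 34.4 ± 1.38 CPM. Cdk1 rose from 95.8 ± 4.82 to 150.8 ± 2.32 CPM.

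Making of ribosomes and of their proteins moved apart. RNA polymerase subunits and ribosome biogenesis factors were higher in 49 of 57 cases and lower in 7 (median 0.551). Ftsj3, a methyltransferase of pre-ribosomal RNA, stood at 50.2 ± 1.75 CPM in WT and 107 ± 1.14 in PCN, and Nol6, a small-subunit processome protein, at 73.6 ± 7.14 and 149 ± 6.27. Cytosolic ribosomal proteins were lower in 63 of 67 cases and higher in 1, with a median of -0.730. Their summed level was 79163 CPM in WT and 48149 in PCN. Rps6 stood at 2558, 2364 and 2614 CPM in WT and at 1259, 1353 and 1298 in PCN. Rps7, on chromosome 12, fell further, from 1288 ± 94.9 to 391.8 ± 21.1 CPM. Rpl17 and Rpl22l1, a paralog of Rpl22, had falls of 2.06 and 2.23 log2 units over WT libraries that were widely spread (385 ± 120.1 and 48.9 ± 21 CPM). Ribosomal protein genes have many processed pseudogenes that can share reads with them, and how such reads were counted is not stated.

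Other parts of the gene expression machinery mostly rose by small amounts. Nucleoporins and karyopherins were higher in 24 of 28 cases (median 0.537), led by Ndc1, a membrane anchor of the nuclear pore, from 45.6 ± 5.71 to 112 ± 8.44 CPM. DEAD and DEAH box helicases were higher in 26 of 29 cases (median 0.369). Ddx21, a nucleolar helicase, rose from 190 ± 13.7 to 321 ± 7.02 CPM, and Ddx58, the viral RNA sensor RIG-I, from 9.13 ± 1.11 to 16.5 ± 1.07. SR and hnRNP splicing proteins were higher in 37 of 45 cases (median 0.366), while Celf3, a splicing regulator of neurons, fell by 2.76. Mitochondrial ribosomal proteins were higher in 13 of 19 cases and proteasome subunits in 11 of 15, or 7 without WT replicate 2. Psmb10 and Psmb9, catalytic subunits of the immunoproteasome, rose from 10.2 ± 1.76 to 29.1 ± 2.29 and from 3.58 ± 0.585 to 7.34 ± 1.12 CPM. Translation factors were divided, 14 higher and 21 lower: Eif4ebp1, a repressor of cap-dependent translation, fell by 1.19, and Eif3f and Eif2s1 each by 0.96. Aminoacyl-tRNA synthetases were 9 higher and 8 lower, but 9 and 4 with DESeq2 size factors of the listed genes.

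Chromatin genes leaned upward. Remodellers, acetylation genes and DNA methylation genes were higher in 44 of 60 cases (median 0.347), with Phf19, a Polycomb accessory protein, rising from 7.44 ± 0.302 to 18.7 ± 2.7 CPM and Hdac11, a deacetylase, falling by 1.35. Histone methyltransferases and demethylases were higher in 24 of 33 cases (median 0.387). Prdm1, the repressor Blimp1 that marks terminal differentiation, was the main exception and fell from 21.6 ± 2.45 to 1.65 ± 0.269 CPM. Zinc finger genes named Zfp, Zbtb, Zscan or Zkscan were higher in 70 of 104 cases and lower in 28 (median 0.470). Zfp334 had 99 counts in WT and none in PCN, at least 41.4-fold lower.

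Secreted and membrane proteases of the squamous surface fell. Of 16 listed transmembrane and secreted serine proteases, 13 were lower and 3 higher, with a median log2 change of -2.316 and a summed level of 2585 CPM in WT and 447 in PCN. Tmprss11b stood at 642 ± 60.7 CPM in WT and 62.6 ± 4.59 in PCN. The related proteases Tmprss11e and Tmprss11f fell as well (log2 -3.47 and -4.04). Kallikreins were lower in 5 of 6 cases by smaller amounts (Klk10 by 1.14 and Klk11 by 1.22), while Klk13 rose by 0.98. The inhibitors fell too. Serpins were lower in 8 of 10 cases (median -1.667), with Serpinb11 at 275 ± 33.0 CPM in WT and 13.6 ± 1.2 in PCN. Cystatins, Kunitz, Kazal and whey acidic protein inhibitors were lower in 11 of 13 cases (median -2.209). Csta1, a stefin of the cornified envelope, fell from 165 ± 34.6 to 7.85 ± 0.267 CPM, and Spink5, the epidermal inhibitor LEKTI, from 84 ± 10.2 to 10.8 ± 1.51. Lysosomal cathepsins were lower in 4 of 5 cases, led by Ctsh (log2 -1.97, SE 0.10). Among ADAM proteases and relatives, Adam28 fell from 115 ± 11.1 to 7.08 ± 0.963 CPM and Adamts1 rose by 1.08.

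Lipid enzymes fell in most cases. Fatty acid elongases, desaturases and ceramide enzymes were lower in 16 of 23 cases (median -0.836), phospholipases in 11 of 12 (median -0.909), acyltransferases and lipases in 14 of 18 (median -1.152), and fatty acid binding and acyl-CoA genes in 16 of 19 (median -0.923). With DESeq2 size factors of the listed genes the lower members were 14, 9, 12 and 12, in the same order. Lipa, the lysosomal acid lipase, fell from 118 ± 12.5 to 13.4 ± 0.821 CPM and Liph, which makes lysophosphatidic acid, from 29.2 ± 2.08 to 2.41 ± 0.695. Acss2, which makes acetyl-CoA from acetate, fell from 122 ± 4.66 to 25.1 ± 0.322 CPM. Fabp2, the fatty acid binding protein known from intestine, had 209 counts in WT and none in PCN, at least 87.3-fold lower. Pla2g16 and Pld1, phospholipases of the A and D types, fell by 4.96 and 2.16 on the log2 scale. Fads6 went the other way, from 3.37 ± 0.498 to 17.7 ± 1.7 CPM.

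Enzymes of oxidation and retinoid handling fell as well. Cytochromes P450 were lower in 9 of 13 cases (median -2.379), with Cyp3a13 at 94.97 ± 6.55 CPM in WT and 4.12 ± 0.149 in PCN and Cyp1b1 at 12.98 ± 1.95 and 1.46 ± 0.295. Aldh1a1 and Aldh1a7, closely related aldehyde dehydrogenases that may share reads, fell by 4.61 and 4.91 on the log2 scale, in a family with 9 lower and 5 higher members (3 higher without PCN replicate 3). Rbp2, a carrier of retinol inside cells, fell to 6.71 ± 1.32 CPM from 83.1 ± 22.03. Dhrs9, a retinol dehydrogenase, fell from 11.1 ± 1.16 to 1.1 ± 0.469 CPM. In that family of 21, 14 were lower and 5 higher, or 10 lower and 5 higher without the chromosome 12 members.

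Calcium-binding and membrane-binding proteins of the epithelium fell. All 9 listed S100 proteins were lower (median -1.300). S100a7a stood at 141 ± 15.9 CPM in WT and 7.11 ± 0.408 in PCN, and S100a6 at 2430 ± 535 and 978 ± 80.4. Annexins were lower in 8 of 9 cases (median -1.628): Anxa8 fell by 2.99 and Anxa3 by 2.64. Fer1l4 and Syt16, of the ferlin and synaptotagmin families, fell by 4.26 and 3.22. In the opposite direction, Syt9 had 2 counts in WT and 126 in PCN, a ratio of 50.3 (exact 95% interval 13.6 to 419.7).

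Cytoskeletal regulators leaned lower. Septins, formins and actin binders were lower in 19 of 23 cases (median -0.757), with Sept5 falling from 21.8 ± 4.36 to 1.88 ± 0.225 CPM and Gsn, the actin-severing gelsolin, from 246 ± 8.82 to 87.3 ± 3.19. Myosins were even, 4 in each direction: Myh10, a non-muscle myosin heavy chain, rose from 1.77 ± 0.264 to 14.2 ± 1.97 CPM, and its relative Myh14 fell from 25.4 ± 3.96 to 5.67 ± 0.722.

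V-ATPase subunits, which acidify organelles, were lower in 9 of 9 cases (median -0.649), or 6 with DESeq2 size factors of the listed genes. Among them Atp6v0a1 stood at 92.1 ± 8.9 CPM in WT and 51.0 ± 1.45 in PCN. Rab GTPases and regulators were lower in 35 of 53 cases and higher in 16 (median -0.481), or 26 lower and 16 higher with those size factors. Rab17, a Rab of polarised epithelium, fell from 22.4 ± 1.49 to 1.35 ± 0.34 CPM and Rab27a, which docks secretory granules, from 10.4 ± 1.07 to 1.56 ± 0.459. SNAREs and tethers were lower in 41 of 64 cases and higher in 21, without the chromosome 12 members 34 were lower and 21 higher, and with DESeq2 size factors of the listed genes 25 were lower and 21 higher. Autophagy genes were lower in 12 of 15 cases, or 8 with those size factors, led by Atg9b, which fell from 176 ± 22.6 to 5.97 ± 1.54 CPM. Lysosomal hydrolases and membrane proteins were lower in 20 of 30 cases. Glb1l2 had 115 counts in WT and none in PCN, at least 48.0-fold lower. Ubiquitin-specific and OTU proteases leaned the other way, 19 higher and 10 lower (6 lower with those size factors). Among them Tnfaip3, the A20 brake on NF-kB signalling, rose from 17.9 ± 1.21 to 35.1 ± 4.26 CPM. RING and HECT ligases with their E2 enzymes were lower in 43 of 71 cases and higher in 28, or 30 and 28 with those size factors. Rnf183 was among the lower (31.4 ± 2.34 to 1.56 ± 0.54 CPM).

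Transporters and channels had no common direction, and single members changed steeply. Amino acid transporters were higher in 14 of 21 cases (median 0.565). Slc1a3, a glutamate transporter, rose from 0.134 ± 0.0687 to 4.99 ± 0.913 CPM, Slc6a4, the serotonin transporter, from 0.223 ± 0.0995 to 2.75 ± 0.394 and Slc7a2, a carrier of arginine and lysine, from 0.246 ± 0.0766 to 2.12 ± 0.312. All 3 remained at a few CPM. Slc15a2, a peptide transporter, rose from 6.89 ± 1.23 to 35.2 ± 6.48 CPM and Slc16a7, a monocarboxylate carrier, from 1.75 ± 0.595 to 12.5 ± 0.332. Scnn1a, the alpha subunit of the epithelial sodium channel, fell from 124 ± 6.47 to 20.03 ± 0.85 CPM and Aqp3, the water and glycerol channel of squamous epithelium, from 669 ± 59.1 to 288 ± 13.5. Kcnh1, a voltage-gated potassium channel, rose from 1.94 ± 0.175 to 21.5 ± 1.34 CPM, and Clic3, a chloride channel family protein, fell from 70.3 ± 2.99 to 3.85 ± 0.504. Among lipid and drug pumps, Abca1, the cholesterol exporter, rose by 2.12 and its relative Abcg1 fell by 2.29. Car8, a carbonic anhydrase relative without enzyme activity, fell from 14.01 ± 1.71 to 0.439 ± 0.215 CPM.

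Adhesion and matrix genes were divided, with opposite steep changes inside a family. Col23a1, a transmembrane collagen, rose from 5.95 ± 1.23 to 153 ± 7.03 CPM, and Col12a1, a fibril-associated collagen, fell from 57.4 ± 7.53 to 1.63 ± 0.59. Lamb2 rose by 1.47 and Lamb1, on chromosome 12, fell by 1.75. Integrins were lower in 7 of 9 cases (5 with DESeq2 size factors of the listed genes), with Itga2 and Itga1, the collagen receptor subunits, as the 2 that rose. Protocadherins of the gamma cluster, whose shared exons make their counts uncertain, included Pcdhgb6 at 5.04 ± 1.31 CPM in WT and 0.12 ± 0.105 in PCN. Ephrins and their receptors were lower in 7 of 9 cases (5 with those size factors), none past 2-fold. Tetraspanins were lower in 13 of 16 cases (median -0.925), and Upk1b, a uroplakin, fell from 5.77 ± 1.73 to 0.209 ± 0.0913 CPM. Surface proteins of the immunoglobulin and C-type lectin families were lower in 17 of 24 cases (median -1.070). Ceacam1, an adhesion molecule and inhibitory ligand, stood at 492 ± 44.0 CPM in WT and 42.9 ± 4.14 in PCN.

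Glycan-building enzymes had no common direction. N-acetylgalactosaminyl and galactosyl transferases with their relatives were lower in 15 of 19 cases (median -0.829), or 10 with DESeq2 size factors of the listed genes. Gcnt1, a core branching enzyme of O-glycans, fell from 20.1 ± 1.74 to 4.79 ± 1.09 CPM. Sialyl and fucosyltransferases were 5 higher and 6 lower. Fut2, the secretor fucosyltransferase, fell from 13.9 ± 2.7 to 0.968 ± 0.298 CPM and St3gal5, which makes the ganglioside GM3, from 5.19 ± 0.948 to 0.237 ± 0.169. St6gal1, a sialyltransferase of N-glycans, rose from 3.07 ± 0.535 to 16.1 ± 1.39 CPM. Heparan and chondroitin sulfate enzymes were divided, 13 higher and 10 lower.

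Secreted signals and immune genes changed in opposite directions. Complement and acute phase genes had 6 higher and 5 lower members with a median of 2.203, so those that rose rose steeply. C1s1, a serine protease of the classical complement pathway, stood at 3.86 ± 0.618 CPM in WT and 79.5 ± 5.48 in PCN. Lcn2, the iron-binding lipocalin of innate defence, had 3 counts in WT and 240 in PCN, a ratio of 63.8 (exact 95% interval 21.6 to 311.8). Cd55, which protects cells from complement, fell from 3.39 ± 1.17 to 0.35 ± 0.192 CPM. Tnf, the inflammatory cytokine, rose from 0.113 ± 0.142 to 4.4 ± 1.08 CPM, whereas Tnfrsf23, a decoy receptor, fell from 102 ± 5.73 to 9.83 ± 1.92. Interleukins and their receptors were even, 9 higher and 10 lower, and Il1a fell from 7.41 ± 2.57 to 1.42 ± 0.312 CPM. Nod2, a sensor of bacterial peptidoglycan, rose from 6.62 ± 0.47 to 40.3 ± 1.64 CPM, and Tlr5, the flagellin receptor, fell from 11.03 ± 0.372 to 0.858 ± 0.484. Casp4, the caspase that senses bacterial lipopolysaccharide in the cytosol, stood at 0.868, 0.136 and 0.0663 CPM in WT and at 9.46, 8.38 and 9.5 in PCN. Gsdmc2, a pore-forming gasdermin, and Bik, a death-promoting BCL2 relative, fell by 3.78 and 3.16 on the log2 scale.

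Growth factor and kinase signalling also had members at opposite extremes. Fibroblast growth factor genes and receptors were higher in 5 of 7 cases, and Fgfr2, the epithelial receptor, rose from 47.9 ± 0.683 to 122 ± 3.51 CPM. Igfbp4 and Igfbp7, secreted binding proteins of the insulin-like growth factor system, rose from 7.6 ± 0.819 to 108 ± 6.7 and from 40.9 ± 5.46 to 171 ± 10.8 CPM. Areg, the EGF receptor ligand amphiregulin, fell from 57.4 ± 9.78 to 3.45 ± 0.354 CPM. MAP kinase phosphatases and Sprouty genes were lower in 11 of 15 cases (median -0.573), or 8 with DESeq2 size factors of the listed genes. Dusp5, an ERK phosphatase, fell from 99.2 ± 4.21 to 8.11 ± 1.24 CPM and Spry3 rose from 0.448 ± 0.146 to 5.01 ± 0.906. Bmp6 and Tgfb3, ligands of the TGF-beta superfamily, fell by 4.08 and 3.19. G protein-coupled receptors were lower in 27 of 45 cases. Gprc5a, an orphan receptor induced by retinoic acid, fell from 35.4 ± 0.997 to 3.94 ± 1.52 CPM, and Ednra, the endothelin A receptor, rose from 0.466 ± 0.302 to 5.31 ± 1.05. Pde4b, which degrades cyclic AMP, had 3 WT counts and 219 PCN counts, a ratio of 58.3 (exact 95% interval 19.7 to 284.7).

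Transcription factors showed steep changes in both directions. Id3, which blocks E-protein binding to DNA, stood at 5.21, 4.36 and 5.5 CPM in WT and at 90.7, 104 and 132 in PCN (21.7-fold). Foxf2, a forkhead factor best known from mesenchyme, stood at 1.6, 0.612 and 1.39 CPM in WT and at 19.8, 25.2 and 20.4 in PCN. Sox7, a factor of the SoxF group, stood at 23.3, 24.4 and 21.1 CPM in WT and at 122, 135 and 114 in PCN. The groups were far apart in all 3 genes, although the PCN libraries spread more for Id3 than for Sox7. Bhlhe22, Rora and Mafa rose by 2.77, 2.45 and 2.39 on the log2 scale. Elf5, an ETS factor of epithelial differentiation, stood at 64.7, 75.5 and 71 CPM in WT and at 3.37, 3.21 and 2.63 in PCN (22.9-fold lower). Hopx, an atypical homeodomain protein of differentiating keratinocytes, stood at 320, 196 and 217 CPM in WT and at 23.9, 23.2 and 25.9 in PCN. Zfp750 and Mxd1, which act in keratinocyte differentiation and against Myc, fell from 97.5 ± 7.15 to 12.5 ± 0.639 and from 224 ± 17.6 to 29.0 ± 1.07 CPM. The grainyhead factors Grhl1 and Grhl3, regulators of epithelial barrier genes, fell by 2.22 and 1.99, with Grhl1 on chromosome 12. Twist1, on chromosome 12, had 142 counts in WT and 1 in PCN, a ratio of 178 (exact 95% interval 31.4 to 7077). Hoxc6 and Hoxc8 fell by 3.63 and 3.24, and Hoxb3 rose by 1.43.

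The split between rises and falls differed on chromosome 12. Of its 341 fitted genes, 47 were higher and 292 lower, and 13.9% of its called genes were higher, beside 47.9% over all chromosomes. Among genes that start before 95 Mb, 3 were higher and 273 lower (median log2 -1.04), and among those that start later, 44 were higher and 19 lower (0.41). No outside source set the 95 Mb point, so the sharpness of this split may come in part from where the cut was placed. With chromosome 12 left out, 2981 genes were higher and 2996 lower, and the median of the fitted genes moved from -0.276 to 0.2. Most small changes are not listed, so such a median changes sign with a slight shift in the split. It was -0.33 on chromosome 7, where 47.9% of called genes were higher, and 0.288 on chromosome 8, where 52.0% were. The move does not measure the size of a chromosome 12 effect. Named genes before that point include Rps7, Twist1, Lamb1, Grhl1, Six4, Prkch, Ddx1 and Npc2.

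**Figure D4:**
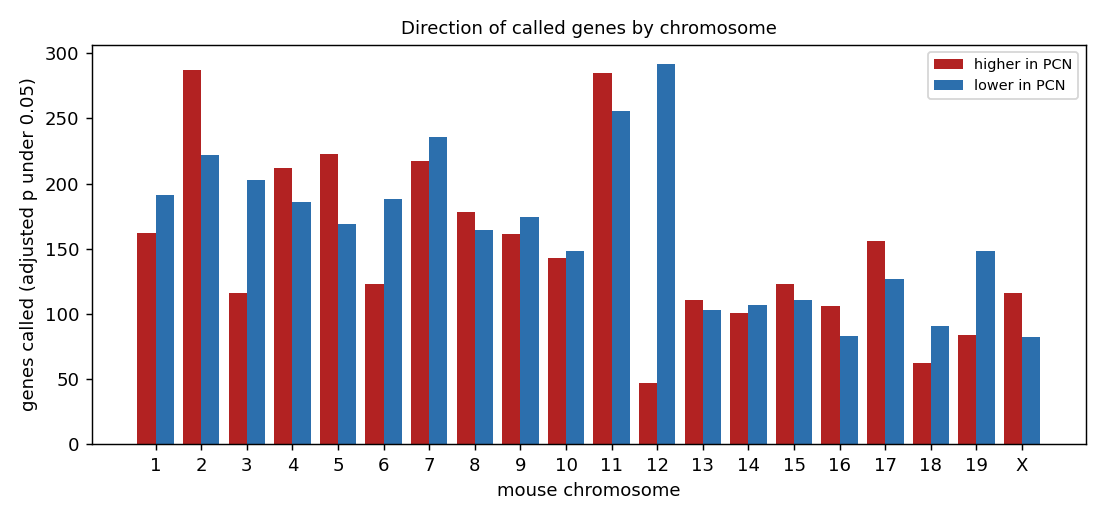
Number of genes called higher (red) and lower (blue) in PCN than in WT (y axis) on each mouse chromosome from 1 to 19 and X (x axis). Chromosome 12 stands apart with 47 higher and 292 lower.

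PCN libraries were also tested against PN libraries, which share the Trp53 and Notch1 labels, over genes listed in their own table or in both tables against WT, of which 6844 passed the filter: 1910 were higher in PCN (27.9%) and 1827 lower (26.7%), 54.6% in either direction. This comparison uses the same PCN libraries as the comparison with WT. Its genes come in part from the 3609 that the authors called between PCN and PN, 24.5% of the 14758 they adjusted over. These shares are therefore raised by how genes were listed, and the new calls are not independent evidence. The Cdkn2a label and any other difference between the PCN and PN lines cannot be told apart here. Bhlhe22, a neuronal basic helix-loop-helix factor, had WT levels of 9.28, 7.49 and 5.04 CPM, PN levels of 1.36, 1 and 1.27, and PCN levels of 45.2, 50.2 and 53.4 (log2 over PN 5.34, SE 0.13). Dach1, a transcriptional corepressor, had WT levels of 5.34, 5.17 and 8.08 CPM, PN levels of 3.5, 3.89 and 2.86, and PCN levels of 59.1, 69.5 and 58.9 (log2 over PN 4.20, SE 0.11). In both genes the PN libraries were below the WT libraries and the PCN libraries above them. Armcx2, Fgf13, Casp4 and Steap4 were near 0 in WT and PN alike, with PN means of 0.136 ± 0.138, 0.167 ± 0.0844, 0.434 ± 0.0679 and 0.356 ± 0.206 CPM.

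In the other direction, Hoxc8 had WT levels of 28.7, 25.5 and 27 CPM, PN levels of 68.8, 66.9 and 66.2, and PCN levels of 2.77, 3.04 and 2.74 (log2 over PN -4.56, SE 0.10). Hoxc6, its neighbour on chromosome 15, was at 14.04 ± 2.0 CPM in PN, between 24.7 ± 3.96 in WT and 1.98 ± 0.322 in PCN. Nrip3, Krt23 and Dclk1 were highest in PN: Nrip3 stood at 20.5 ± 2.77, 105 ± 3.22 and 15.1 ± 0.585 CPM in WT, PN and PCN, Krt23 at 5.26 ± 0.928, 27.9 ± 3.31 and 2.23 ± 0.834, and Dclk1 at 6.41 ± 1.19, 13.7 ± 1.17 and 2.13 ± 0.419. The small fall of Nrip3 from WT (log2 -0.43, edgeR adjusted p = 0.0133) missed the threshold without PCN replicate 1 (0.0621) and with DESeq2 size factors of the listed genes in the edgeR fit (0.144). Fbln2, a matrix fibulin, fell from 6.66 ± 0.701 CPM in WT through 2.78 ± 0.4 in PN to 0.435 ± 0.224 in PCN.

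**Figure D5:**
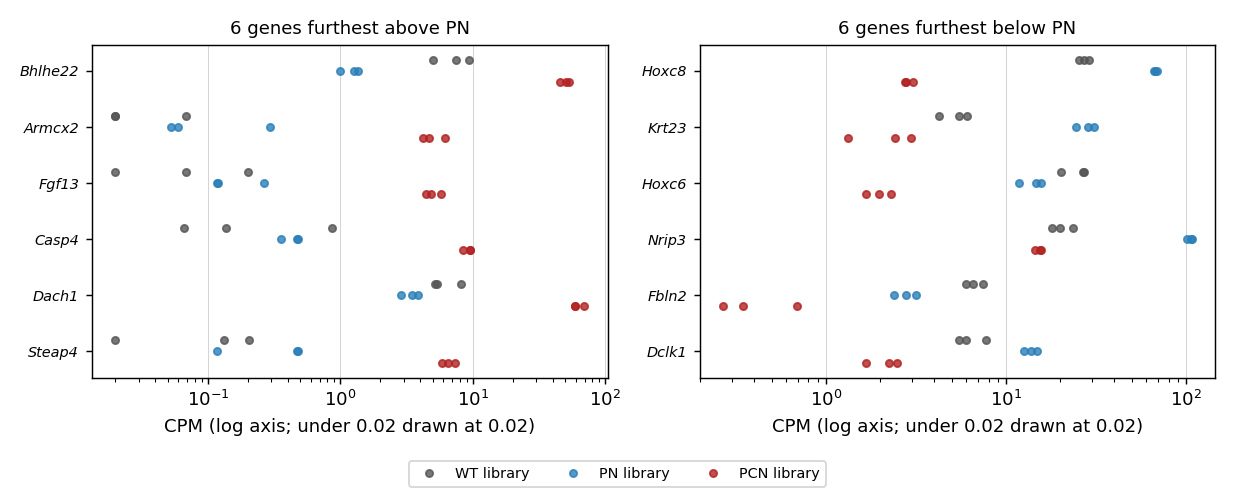
CPM in each WT, PN and PCN library (x axis, log scale; each point is 1 library) for the 6 named genes furthest above and the 6 furthest below PN. Bhlhe22 and Dach1 are lowest in PN and highest in PCN, and Hoxc8, Krt23, Nrip3 and Dclk1 are highest in PN.

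Families differed in how PCN stood to PN. Cytosolic ribosomal proteins, with values for 61 members, were lower than PN in 37 and higher in 2. Proteasome subunits were lower in 8 of 15 and chaperones in 15 of 35, and neither family was lower than WT in most members. Complement and acute phase genes were higher than PN in 7 of 8, kallikreins in 5 of 6, and apoptosis and pyroptosis genes in 13 of 28. Replication genes were higher than PN in 13 of 51 and lower in 3, and kinetochore, spindle and condensin genes higher in 8 of 59 and lower in 2. Of all genes tested against PN, 27.9% were higher and 26.7% lower, shares raised by how genes were listed. Differences of families from these shares were not tested. Of the rises against WT named above, Heph was lower in PCN than in PN (129 ± 6.09 CPM in PN), Smoc2 was higher (26.4 ± 1.96 CPM in PN), and Spsb4 stood at 11.3 ± 0.396 CPM in PN, close to its PCN level (log2 difference -0.02, SE 0.12).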

How the data were processed

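RNA from 9 organoid libraries was sequenced, and 6 libraries (WT and PCN) carry the main comparison. The authors deposited raw read counts per gene, normalized counts (a signal made by dividing counts by 1 size factor per library), FPKM values, log2 fold changes and p-values for genes they called, per the file headers. CASAVA, DESeq and build GRCm38/mm10 are named in the submitters' processing notes; no source used here names the aligner, counter or annotation. The library totals implied by the deposited counts, FPKM values and gene lengths moved with the size factors, so they are normalized totals and the true depth is unknown. CPM here is counts scaled to that total.

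Counts were fitted with edgeR 4.0.16 (quasi-likelihood, R 4.3.3) on the deposited size factors after edgeR's filter on low counts, with Benjamini-Hochberg adjustment over the 17300 genes the authors adjusted over and a threshold of 0.05. DESeq2 1.42.0 was an alternative, and the fit was tested on simulated data. A gene with no counts in a group gets a bound computed from 3 counts summed over its libraries. Named genes were the 12 largest rises and falls at 5 CPM or more, the largest gains and losses in CPM, the largest changes in each family at 2 CPM or more, transcription factors, and the genes furthest from PN. These rules took only called genes whose WT and PCN libraries did not overlap, except in families where no member passed. Members, gene lists and families were chosen with earlier results of these data known, and 26 genes that share a family's prefix but are of another kind were removed after inspection. Promoters come from RefSeq, GRCm38.p6. Some results are not reported here.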

Additional observations from a re-analysis of the deposited data

How the results depend on the processing

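The number of genes called higher in PCN than in WT (3028) and lower (3288) stayed within 1.5 times under the alternatives run. It was 3025 and 3295 with the totals implied by FPKM, 3056 and 3032 with TMM on the listed genes, 3081 and 2632 with DESeq2 size factors of the listed genes, 3134 and 3452 without the filter, and 3184 and 3484 with DESeq2's Wald test. Leaving out 1 library gave 2623 to 3047 higher and 3015 to 3294 lower. With a replicate block the counts were 2895 and 3180. Same-numbered libraries did not deviate together (correlations -0.062, -0.036 and -0.135). Deviations from means of 3 libraries cannot exclude that the samples were paired, and the labels do not state it. Leaving out chromosome 12, chosen after seeing the data, gave 2981 and 2996. Of 192 counts of family members called higher or lower, 13 moved by more than 1.5 times with DESeq2 size factors of the listed genes, 2 with TMM, 3 each without the filter, with the Wald test and with the replicate block, and 2 to 11 when 1 library was left out (11 without PCN replicate 3, 8 without PCN replicate 1). Lower calls fell from 41 to 25 for SNAREs, from 16 to 10 for cyclins and kinases, from 10 to 6 for ubiquitin proteases and from 8 to 4 for synthetases with the DESeq2 size factors, and higher calls from 11 to 7 for proteasome subunits without WT replicate 2. Medians near 0 changed sign under another scaling or without chromosome 12 for the GATA, grainyhead, AP-2 and RUNX factors, Klf and Sp factors, protein kinase C and diacylglycerol kinases, metal ion transporters and bHLH factors, so no direction is given for them. Listed counts give lower bounds on depth, which limits genes near 0 counts.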

Other observations

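Listed RNAs outside the protein-coding genes were mostly lower in PCN than in WT. Of 68 fitted lincRNAs, 16 were higher and 52 lower (median log2 change -1.504), and of 44 antisense genes 8 were higher and 35 lower (-1.485), where reads of an antisense gene and its partner may not be told apart. Processed pseudogenes, which can share reads with their parent genes, were higher in 21 and lower in 94 of 126 cases (-0.781). Protein-coding genes had a median of -0.226. Of 13 fitted transcripts of the mitochondrial genome, 11 were higher and 2 lower, but these include protein-coding ones. Of its 6 fitted tRNAs, 5 were higher and 1 lower, and its 1 fitted rRNA was lower (log2 -1.356).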
